A study of Mus musculus with 48 samples.

Results

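The response of mouse embryonic stem cells (mESCs) to loss of Mtrex was described from the RNA-seq libraries of Mtrex-KO cells and their Mtrex-WT control, 4 of the 48 samples of the series. Genes whose CPM (read counts scaled to a common library total) averaged 0.5 or more over these libraries were taken, which were 15334 of the 55335 genes in the table. Of these, 13015 were protein coding, 1694 noncoding, 616 pseudogenes and 9 were not in the annotation used here. The noncoding genes comprised 1097 long noncoding genes, 450 TEC genes (loci that await experimental testing) and 147 small or structured RNAs. A gene absent from Mtrex-WT could enter only by being high in Mtrex-KO, and counts over gene classes, pairs and differences between experiments are therefore also given for genes of at least 0.5 CPM in Mtrex-WT. The gene lists, small RNA classes and pseudogenes are given only under the filter over all 4 libraries. So are coding genes by length and sets chosen after their values were seen.

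Both groups come from 1 conditional line of male cells on a hybrid 129-C57BL/6 background, grown with serum, LIF and 2i. The line carries a Cre recombinase that 4-hydroxytamoxifen (4OHT) activates, the biotin ligase BirA, loxP sites in introns 6 and 7 of Mtrex and a 3A tag on Nrde2. Mtrex-KO cells received 100 nM 4OHT for 3 days and Mtrex-WT cells were untreated, so the deletion cannot be told apart from 4OHT and active Cre. Nrde2-KO cells (100 nM 4OHT for 4 days) and Ccdc174-dTAG cells (500 nM dTAG-13 for 24 h, which leads to loss of the CCDC174 protein), each with their own untreated control, served for comparison. Each group had 2 libraries of rRNA-depleted total RNA, and nothing states whether these came from separate cultures. The p-values therefore measure the spread between libraries, which may be technical. That spread was pooled over 20 libraries in 10 groups, so it is not that of the Mtrex libraries alone.

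MTREX (also called MTR4) is the RNA helicase that hands transcripts to the nuclear exosome, a complex of RNases. It works in several assemblies. NEXT, with ZCCHC8 and RBM7, acts mainly on short transcripts without a poly(A) tail, PAXT, with ZFC3H1, on polyadenylated nuclear transcripts, and the nucleolar assemblies on rRNA precursors. Known substrates of these pathways are promoter upstream transcripts, which arise in the opposite direction from active promoters, enhancer RNAs, 3′ extended snRNAs and the spacers of the rRNA precursor.

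The deletion removes exon 7 of 27. This exon lies at chr13:112913100-112913190 of GRCm38 on the minus strand, in the coding region, and is shown because its length fixes the reading frame of what remains.
Mtrex exon 7: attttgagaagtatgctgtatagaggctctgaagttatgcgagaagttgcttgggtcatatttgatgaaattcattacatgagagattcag
Its 91 bases leave a remainder of 1 after division by 3. Joined across the gap, exons 6 and 8 reach a stop codon at codon 232, in exon 8, where the full protein has 1040 codons. The last 30 bases of exon 6 and the start of exon 8 up to that stop codon, which is in capitals, read as follows.
Mtrex exons 6 and 8 joined: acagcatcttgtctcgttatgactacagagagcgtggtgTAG
The loxP insertion points lie 554 bases before and 568 bases after the exon.

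Mtrex was at 115 and 107 normalized CPM (CPM divided by a scaling factor per library) in the Mtrex-WT libraries and at 43.6 and 39.8 in the Mtrex-KO libraries. The groups did not overlap, and the log2 fold change was −1.41 ± 0.09 (SE, n = 2 per group, adjusted p = 5.6e-10, limma). The counts cover the whole gene and not exon 7 alone. Nrde2, whose protein binds MTREX, had 36.3 and 38 in Mtrex-WT and 30.0 and 36.9 in Mtrex-KO (−0.16, adjusted p = 0.15). Ccdc174 had 24.2 and 30.1 in Mtrex-WT and 34.8 and 43.9 in Mtrex-KO (0.53, adjusted p = 0.00062), below the fold change that was called.

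The libraries held between 28767829 and 32312945 reads in genes. Of the reads behind the CPM, 13.6 and 10.7% fell outside genes in Mtrex-WT, 27.9 and 17.3% in Mtrex-KO replicates 1 and 2, and between 10.5 and 16.4% in the 16 other libraries of the fit. The Mtrex-KO libraries also differed more from each other than the Mtrex-WT libraries did, with 727 against 113 genes apart by more than 2-fold. Olfactory and vomeronasal receptor genes, which are known for sensory neurons, summed to 9.75 and 9.31 normalized CPM in Mtrex-WT, 51.4 and 32.8 in Mtrex-KO, with 6.27 to 14.6 elsewhere. The part of these differences in the results below was not tested. The 8 embryonic stem cell markers summed to 4266 and 4692 in Mtrex-WT and to 3033 and 3936 in Mtrex-KO. The 7 fibroblast markers summed to between 2.05 and 3.56 in all 4 libraries, with Lum at 0. In such bulk RNA, a lower level can be fewer cells of a type or less RNA per cell, and these cannot be told apart.

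In Mtrex-KO a larger share of noncoding than of coding genes was called higher. Calls required an adjusted p under 0.01 together with a change beyond 1 on the log2 scale. Over all genes 19.3% were called higher and 10.6% lower, that is, 2962 and 1621 genes, and 79.3% had groups that did not overlap. Of the 1694 noncoding genes 977 were called higher (57.7%) and 52 lower (3.07%), with a median log2 fold change of 1.33. Of the 13015 coding genes 1852 were called higher (14.2%) and 1496 lower (11.5%), with a median of −0.03. Noncoding genes made up 11% of the genes tested, 33.0% of the higher calls and 3.21% of the lower calls.

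The filter bears on these counts. Among genes of at least 0.5 CPM in Mtrex-WT, 406 of 1058 noncoding genes were higher (38.4%) and 52 lower, with a median of 0.67, and 1412 of 12518 coding genes were higher (11.3%) and 1496 lower, with a median of −0.07. Within one band of Mtrex-WT level, from 1 to 10 CPM, 37.5% of 536 noncoding and 19.6% of 3337 coding genes were higher. Over 10 CPM these shares were 20.7% of 111 and 6.13% of 8525. Below 0.1 CPM every member was higher, because only a rise could bring it over the filter.

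**Figure D1:**
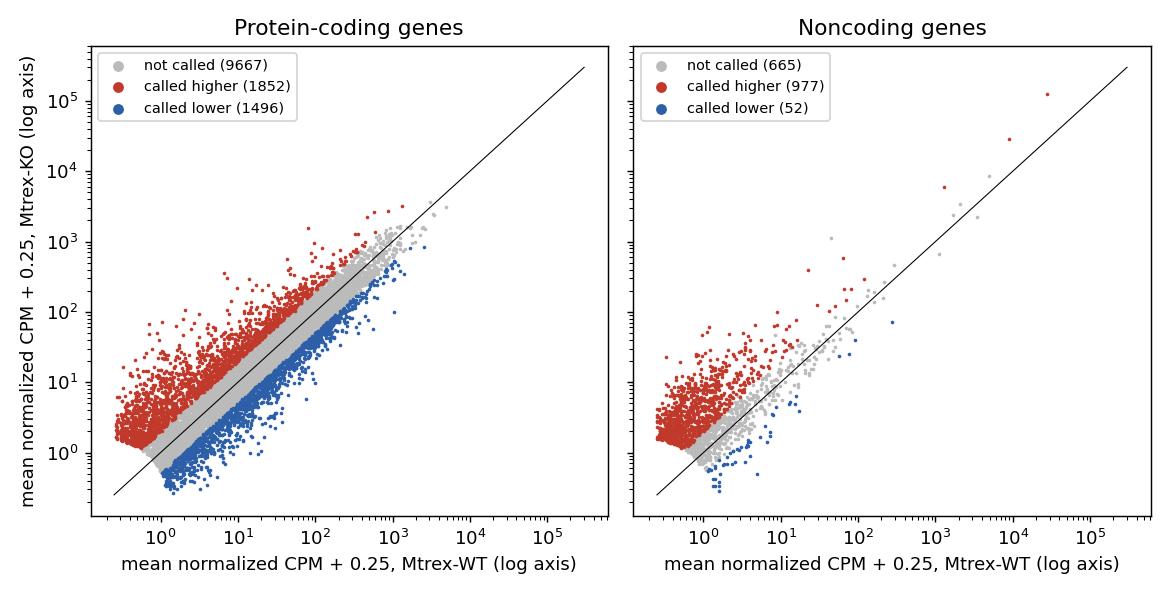
Mean normalized CPM plus 0.25 in Mtrex-WT (horizontal, log axis) and Mtrex-KO (vertical, log axis), one point per gene, for 13015 coding (left) and 1694 noncoding genes (right), with calls in red and blue and the diagonal as a line. Coding genes spread to both sides (1852 higher, 1496 lower), whereas noncoding genes lie mostly above the diagonal (977 higher, 52 lower).

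Long noncoding genes that start within 1000 bases of a coding gene and run the opposite way (divergent) were higher in 188 of 232 cases and lower in 1, with a median log2 fold change of 2.21. Those overlapping a coding gene on the opposite strand were higher in 313 of 415 cases and lower in 9 (median 2.06), and of the remaining 450, 218 were higher and 29 lower (median 0.97). The median Mtrex-WT level was 0.512 normalized CPM for divergent, 0.572 for antisense and 0.888 for the remaining genes, so the filter bears more on the first classes. Among genes of at least 0.5 CPM in Mtrex-WT, 75 of 117 divergent (64.1%), 129 of 223 antisense (57.8%) and 92 of 303 remaining genes (30.4%) were higher, with medians of 1.62, 1.24 and 0.47. From 1 to 10 CPM in Mtrex-WT these shares were 66.2% of 65, 52.5% of 118 and 27.3% of 154. The differences between classes were not tested.

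Of TEC genes, the median Mtrex-WT level was 0.336 at divergent starts and 0.375 for antisense genes, below the filter. Among those of at least 0.5 CPM in Mtrex-WT, 13 of 14 divergent, 16 of 24 antisense and 57 of 240 remaining TEC genes were higher. For all 332 remaining TEC genes the median was 1.31 in Mtrex-KO replicate 1 and 0.20 in replicate 2, so it rested mainly on the library with the larger share of reads outside genes. With the same Mtrex-WT minimum, long noncoding genes of 1 exon were higher in 67 of 105 cases (median 1.61) and those of more exons in 229 of 538 (median 0.75). The shortest by genomic length had a median of 1.04 (168 genes) and the longest 0.71 (250 genes). Coding genes of 1 exon were higher in 77 of 289 cases (26.6%) and those of more exons in 1335 of 12229 (10.9%).

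**Figure D2:**
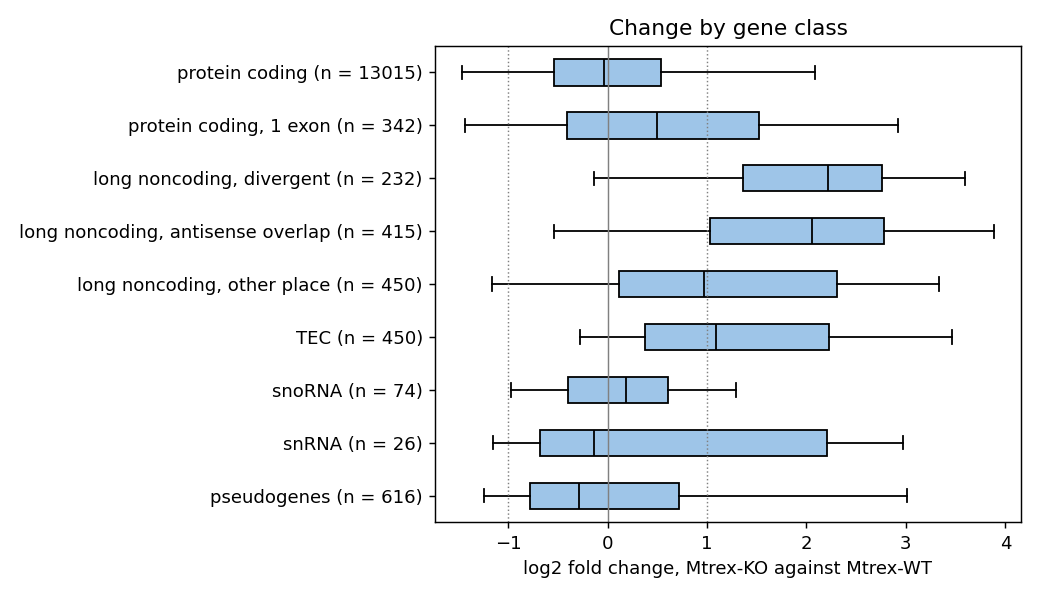
Log2 fold change of Mtrex-KO against Mtrex-WT by gene class (boxes from the lower to the upper quartile, a line at the median, whiskers from percentile 5 to 95, dotted lines at the thresholds of −1 and 1). The median is 2.21 for divergent and 2.06 for antisense long noncoding genes, against −0.03 for coding genes and 0.18 for snoRNAs, over all members, including those that passed the filter only through Mtrex-KO.

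Small RNAs differed by class. Of 74 snoRNA genes 8 were higher and 4 lower (median 0.18), of 26 snRNA genes 11 and 3, of 18 miRNA genes 8 and 0, and of 616 pseudogenes 130 and 73 (median −0.28). The class of small or structured RNAs as a whole had 31 of 147 higher, 21.1%, near the share over all genes (19.3%). These counts are under the filter over all 4 libraries, so a member low in Mtrex-WT could enter through Mtrex-KO alone.

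Divergent transcription could be followed in pairs, since 268 divergent noncoding genes had a coding partner that was also tested. The median start-to-start distance was 133.5 bases. The median level of the noncoding genes was 0.463 normalized CPM in Mtrex-WT and 2.92 in Mtrex-KO. Of these noncoding genes 224 were called higher and 1 lower, with a median log2 fold change of 2.23. Of their coding partners 31 were called higher (11.6%), 13 lower (4.85%) and 224 not at all, with a median of −0.03. The noncoding genes were low in Mtrex-WT and many passed the filter only through Mtrex-KO, whereas the partners had a median of 55.5 normalized CPM. In the 127 pairs whose noncoding gene had at least 0.5 CPM in Mtrex-WT, 85 noncoding genes were higher and 1 lower (median 1.65), against 10 and 9 partners (median −0.11), and the noncoding value was the higher one in 116. Over all 268 pairs the noncoding member had the higher value in 249, and the coding member was within 0.5 of 0 in 149. In 29 pairs both were higher, and in 7 the noncoding member was higher and the coding one lower. Across the pairs, which all come from the same libraries, Pearson's r of the log2 fold changes was 0.28 and Spearman's rho 0.25.

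Among divergent genes called higher, the pairs with the highest CPM were Ptprv with Ptpn7, 4632427E13Rik with Rab30 and 2810013P06Rik with Ankrd11. AC133451.1 with Smndc1, chosen after its values were seen, is shown as a further pair. For the last 2 pairs the whole stretch between the starts is shown on the strand of the coding gene, which begins at the next base. The capitals mark the first 30 bases of the noncoding gene, which runs the opposite way. They lie at chr8:123042278-123042495 and chr19:53390579-53390818 of GRCm38, both on the minus strand.
2810013P06Rik to Ankrd11: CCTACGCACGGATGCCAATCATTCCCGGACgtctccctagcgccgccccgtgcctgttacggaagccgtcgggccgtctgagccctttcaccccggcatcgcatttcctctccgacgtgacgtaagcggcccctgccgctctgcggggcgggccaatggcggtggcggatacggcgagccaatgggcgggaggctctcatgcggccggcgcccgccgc
AC133451.1 to Smndc1: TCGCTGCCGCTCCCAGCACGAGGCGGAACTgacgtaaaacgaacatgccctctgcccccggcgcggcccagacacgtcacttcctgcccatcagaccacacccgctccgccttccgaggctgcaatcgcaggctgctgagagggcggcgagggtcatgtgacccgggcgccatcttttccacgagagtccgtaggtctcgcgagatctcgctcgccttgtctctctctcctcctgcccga
The stretches hold 30 and 25 CG dinucleotides and are 70.6 and 65.4% G and C.

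2810013P06Rik had 8.70 and 8.81 normalized CPM in Mtrex-WT and 58.4 and 71.5 in Mtrex-KO, a log2 fold change of 2.85 ± 0.14 (adjusted p = 2.6e-11, limma). Its partner Ankrd11, a chromatin regulator, had 380 and 347 in Mtrex-WT and 335 and 305 in Mtrex-KO (−0.18, adjusted p = 0.049). From 189 bases apart, therefore, one transcript rose and the other was not called. AC133451.1 went from 0.395 and 0.821 to 22.3 and 25.7 (4.86 ± 0.25, adjusted p = 4.1e-11), and Smndc1, a splicing factor 211 bases away, from 44.8 and 38.5 to 85.5 and 68.6 (0.88, adjusted p = 6.1e-06), short of the threshold. Ptprv, which counts as noncoding here only by its class in the annotation used, rose from 9.67 and 7.80 to 104 and 97.7 (3.50 ± 0.18, adjusted p = 4.9e-11). Ptpn7, a phosphatase gene, had 3.24 and 4.08 in Mtrex-WT and 4.65 and 5.58 in Mtrex-KO. In the pair of 4632427E13Rik and Rab30, the noncoding gene rose from 16.1 and 14.4 to 86.9 and 66.0 (2.30 ± 0.13, adjusted p = 1.3e-10). Rab30, a small GTPase of the Golgi, had 15.2 and 17.8 in Mtrex-WT and 16.7 and 19.2 in Mtrex-KO, groups that overlapped.

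**Figure D3:**
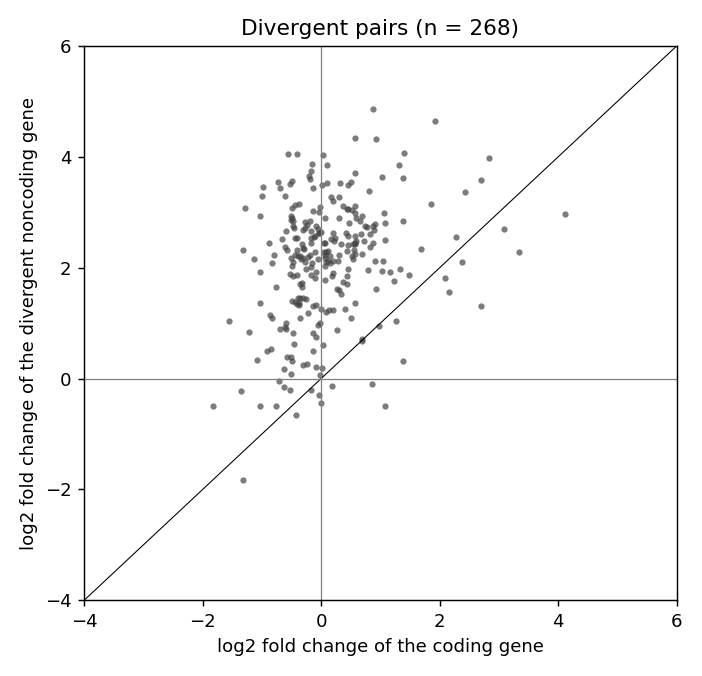
Log2 fold change of the coding gene (horizontal) and of its divergent noncoding gene (vertical) for 268 pairs, with the diagonal of equal change as a line. Points lie in a column above 0, with medians of −0.03 for the coding and 2.23 for the noncoding genes, and 249 of 268 pairs have the higher value in the noncoding gene (116 of the 127 pairs with at least 0.5 CPM in Mtrex-WT).

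Known signals that separate the directions of such promoters are polyadenylation signals and 5′ splice sites. Windows of 1000 bases from each annotated start were read on the transcribed strand of GRCm38. They could run past the annotated end of a shorter gene. The poly(A) signal AATAAA occurred in 108 of 275 divergent noncoding genes (39.3%) and in 43 of 275 coding partners (15.6%). It occurred in 18.6% of all 13008 coding genes and in 32.0% of 865 long noncoding genes elsewhere. The 5′ splice site letters GTAAGT occurred in 16.7% of the divergent genes, 18.2% of the partners, 18.0% of all coding genes and 23% of the other long noncoding genes. The motifs do not overlap each other, and a match is a description of the letters and not a functional site.

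The largest increases among noncoding genes were those of loci that were nearly silent in Mtrex-WT. 4932422M17Rik (lincRNA, chr5:123138931-123141569, plus strand) had 0.843 and 0.985 normalized CPM in Mtrex-WT and 59.6 and 62.6 in Mtrex-KO (log2 fold change 5.72 ± 0.27, adjusted p = 1.9e-11, limma). Gm38102, at chr5:123133939-123137695 on the same strand, went from 0.316 and 0.192 to 20.6 and 17.6 (5.27, adjusted p = 2.6e-10). Both lie opposite AI480526, a lincRNA on the minus strand that is divergent to Setd1b. AI480526 rose from 2.19 and 2.11 to 26.8 and 22.3 (3.36, adjusted p = 3.7e-11). Setd1b, which encodes a histone H3 lysine methyltransferase and follows on the plus strand, was at 3.14 and 3.20 in Mtrex-WT and at 39.3 and 8.23 in Mtrex-KO (2.42 ± 0.41, adjusted p = 4.4e-05). Without Mtrex-KO replicate 1 its log2 fold change was 1.31, and without replicate 2 it was 3.53. AI480526 and Setd1b were named after their values were seen. All 4 transcripts of this locus were higher, on both strands, and reads were counted by strand.

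4933424N20Rik, a TEC gene at chr5:116380173-116381635 on the minus strand, rose from 0.659 and 0.766 to 40.0 and 52.7 (5.59 ± 0.25, adjusted p = 9.7e-12). AC132307.3, antisense to the zinc-finger gene Zfp532, went from 0.764 and 0.931 to 44.1 and 57.6 (5.53, adjusted p = 1.5e-12). Zfp532 itself, which the naming rule does not cover, went from 58.0 and 71.6 to 144 and 159 (1.23, adjusted p = 1.9e-07). 5830418P13Rik, antisense to the lens gene Bfsp2, rose from 0.712 and 0.383 to 26 and 24.1 (5.02, adjusted p = 9.7e-12). In Nrde2-KO its log2 fold change was 2.67, and the difference between the effects was 2.35 (adjusted p = 1.1e-05), whereas the other noncoding genes with the largest increases had between 0.19 (4933424N20Rik) and 0.81 (Xist) in Nrde2-KO.

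Noncoding genes that fell were few. Vax2os, antisense to the eye homeobox gene Vax2, was at 4.8 and 4.49 in Mtrex-WT and at 0.262 and 0.232 in Mtrex-KO (−3.30 ± 0.16, adjusted p = 2.0e-11). Gm2694 fell from 5.46 and 7.25 to 0.787 and 1.53 (−2.27, adjusted p = 7.9e-08), Gm4961 by 2.22 and D030068K23Rik by 2.17 on the log2 scale. Gm43948 had 1.32 and 1.31 normalized CPM in Mtrex-WT and 1 read in each Mtrex-KO library, and Gm41505 had 1.29 and 1.37 against 0.131 and 0.0332.

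**Figure D4:**
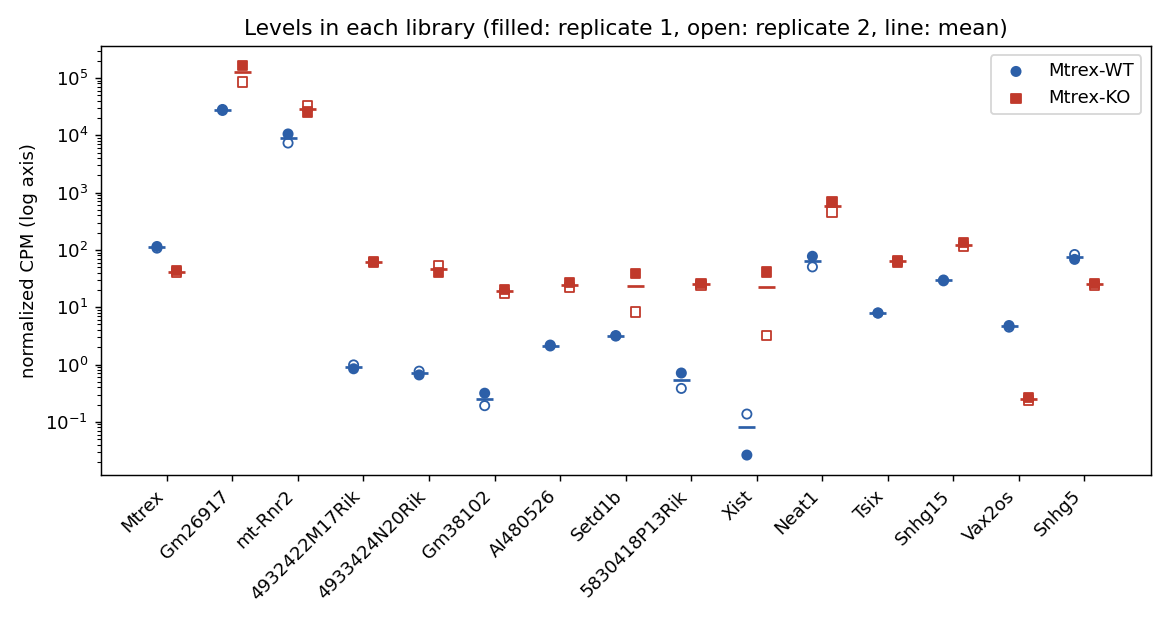
Normalized CPM (log axis) of 15 genes in each library of Mtrex-WT (circles) and Mtrex-KO (squares), replicate 1 filled, replicate 2 open, with a line at the mean. The groups are apart for all genes shown, while the Mtrex-KO replicates themselves lie apart for Xist (41.2 and 3.22) and Setd1b (39.3 and 8.23).

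Tsix, Ftx, Jpx and Xist, which lie in the X inactivation center, were each called higher in these male cells. Tsix, the antisense repressor of Xist, went from 7.96 and 7.88 to 61.5 and 65.0 normalized CPM (2.96 ± 0.13, adjusted p = 9.7e-12, limma), Ftx from 2.71 and 2.41 to 12.2 and 9.43 (1.97, adjusted p = 1.2e-07), and Jpx from 0.105 and 0.0274 to 3.64 and 2.06 (3.25, adjusted p = 1.0e-08). Xist, the RNA that coats the inactive X, had 0.0264 and 0.137 in Mtrex-WT and 41.2 and 3.22 in Mtrex-KO (5.2 ± 0.65, adjusted p = 1.7e-06). Its increase was thus seen in both libraries but differed widely in size, with log2 fold changes of 6.99 without Mtrex-KO replicate 2 and 3.41 without replicate 1.

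Of 20 nuclear long noncoding RNAs tested from a list of 23, 8 were higher and none lower, with a median of 0.80. This share was 40%, against 65.5% of all long noncoding genes. The listed RNAs had a median of 10.5 normalized CPM in Mtrex-WT and all long noncoding genes 0.668, so the filter bears more on the latter. Of all noncoding genes over 10 CPM in Mtrex-WT, 20.7% were higher. The 8 higher members of the list were Xist, Jpx, Tsix, Neat1, Platr4, Pvt1, Kcnq1ot1 and Tug1. Neat1, the scaffold of paraspeckles, rose from 77.4 and 50.5 to 706 and 460 (3.18 ± 0.24, adjusted p = 4.0e-09). Malat1, a nuclear speckle RNA, had 2249 and 1849 in Mtrex-WT and 4113 and 2729 in Mtrex-KO (0.72, adjusted p = 0.0019), below the threshold.

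Among 21 snoRNA host genes tested of 25 listed, 3 were higher (14.3%) and 4 lower (19%), against 19.3 and 10.6% of all genes (median −0.30). Snhg20 went from 11.5 and 11.4 to 55.4 and 57.3 (2.27 ± 0.13, adjusted p = 1.6e-10) and Snhg15 from 28.8 and 29.8 to 135 and 113 (2.07 ± 0.10, adjusted p = 1.5e-11). Snhg5 went the other way, from 68.3 and 83.1 to 26.2 and 24.1 (−1.58 ± 0.12, adjusted p = 4.3e-09), as did Snhg6, from 87.9 and 92.9 to 41.8 and 36.8 (−1.20). Gas5, another host, had 159 and 157 in Mtrex-WT and 198 and 187 in Mtrex-KO (0.28, adjusted p = 0.022).

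Among 10 miRNA host genes tested of 14 listed, 3 were higher and none lower (median 0.61), against 19.3 and 10.6% of all genes. H19, the imprinted host of miR-675, was at 13.5 and 31.0 in Mtrex-WT and at 279 and 498 in Mtrex-KO (4.17 ± 0.60, adjusted p = 8.5e-06). Its log2 fold change was 3.58 without Mtrex-WT replicate 1 and 4.76 without replicate 2. Mir22hg rose from 1.53 and 1.78 to 14.8 and 13.4 (2.92 ± 0.19, adjusted p = 8.4e-10). Mir17hg, host of the miR-17 cluster, had 19.98 and 19.9 in Mtrex-WT and 21.7 and 14.6 in Mtrex-KO.

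The hairpins of the miR-290 cluster, the main miRNAs of mESCs, were looked at after their values were seen. Their mature 3p sequences as listed by RefSeq for GRCm38.p6, with the seed (bases 2 to 8) in capitals, show which targets the members share.
miR-290a-3p: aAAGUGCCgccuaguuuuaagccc
miR-291a-3p: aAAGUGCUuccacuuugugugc
miR-293-3p: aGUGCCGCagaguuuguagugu
miR-294-3p: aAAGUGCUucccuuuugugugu
miR-295-3p: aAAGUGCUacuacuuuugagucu
The seed is the same in miR-291a-3p, miR-294-3p and miR-295-3p. The counts are of reads over the annotated hairpins in a total RNA library and are no measure of mature miRNA. Of 7 hairpins tested 6 were higher, against 19.3% of all genes. They lie side by side in the same cluster and are not independent observations. The 6 are also among the 8 higher miRNA genes counted above. Mir290a went from 1.77 and 1.45 to 8.56 and 5.08 (1.89 ± 0.23, adjusted p = 1.1e-06), Mir294 from 0.738 and 1.51 to 6.98 and 5.08 (2.24 ± 0.32, adjusted p = 7.2e-06) and Mir295 from 2.06 and 2.00 to 10.7 and 5.48 (1.80 ± 0.25, adjusted p = 5.8e-06). Mir291b had 6.72 and 5.83 in Mtrex-WT and 11.7 and 12.1 in Mtrex-KO (0.90, adjusted p = 1.9e-05), short of the threshold. Mir23a, of another cluster, rose from 0.0527 and 0.0274 to 1.77 and 1.10 (2.51, adjusted p = 3.0e-07).

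Genes of snRNAs and other small RNAs moved in both directions. Rnu11, the U11 snRNA of the minor spliceosome, rose from 1.74 and 2.00 to 11.3 and 7.97 (2.20 ± 0.30, adjusted p = 5.0e-06), and Rnu2-10, a U2 gene, from 1.13 and 1.15 to 10.4 and 10.8 (2.97 ± 0.21, adjusted p = 1.9e-09). Rnu1a1 (2.20) and Rnu5g (2.27) were higher too, as was Rnu12 (1.06), whose call was lost without Mtrex-KO replicate 1 (0.75) or Mtrex-WT replicate 1 (0.84). Gm22973, annotated as an snRNA, fell from 281 and 267 to 82.5 and 62.4 (−1.93 ± 0.22, adjusted p = 6.3e-07). Snora23, a guide of pseudouridylation, fell from 13.9 and 20.3 to 4.16 and 3.25 (−2.12, adjusted p = 2.6e-05), while Rnu3a, a U3 gene, rose from 0.105 and 0.109 to 2.46 and 2.46. Rn7sk, the RNA that holds P-TEFb inactive, had 4827 and 5034 in Mtrex-WT and 9156 and 8166 in Mtrex-KO (0.81, adjusted p = 6.3e-05). These genes have near-identical copies and only uniquely mapping reads were counted, so their levels are uncertain. Apart from Rnu11 and Rnu12 they were chosen after their values were seen.

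The largest gains in CPM were in transcripts of rRNA loci. CPM are not divided by length here. Gm26917 (lincRNA, chr17:39843013-39846341, plus strand) had 28190 and 27074 normalized CPM in Mtrex-WT and 165414 and 84932 in Mtrex-KO, where the 16 other libraries had 9599 to 25751. Its log2 fold change was 2.10 ± 0.35 (adjusted p = 4.1e-05, limma), and the adjusted p in a limma fit of the 4 Mtrex libraries alone was 0.0108, above the threshold. It ends 12 bases before the start of Rn18s-rs5, which RefSeq lists as an 18S rRNA pseudogene. The junction, chr17:39846282-39846383 of GRCm38 on the plus strand, is printed to show this, with the first 30 bases of Rn18s-rs5 in capitals.
End of Gm26917 and start of Rn18s-rs5: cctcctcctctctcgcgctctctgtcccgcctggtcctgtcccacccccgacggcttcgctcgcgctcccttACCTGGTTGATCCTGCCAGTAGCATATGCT
Gm42418, which overlaps the 18S-like stretch itself and was named after its values were seen, had 1755 and 1625 in Mtrex-WT and 4494 and 327 in Mtrex-KO (−0.48, adjusted p = 0.64). The libraries were depleted of mature rRNA. The mitochondrial rRNAs mt-Rnr2 (10539 and 7320 against 25393 and 32514, log2 fold change 1.71, adjusted p = 0.00031) and mt-Rnr1 (1625 and 964 against 5060 and 7026, log2 fold change 2.25, adjusted p = 0.00039) were higher as well. In the 16 other libraries mt-Rnr2 varied widely, from 4665 in Nrde2-KO replicate 2 to 19530 in Nrde2-D174R replicate 1.

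The machinery around MTREX changed little at the RNA level. Of 23 genes of MTREX partner complexes, Zfc3h1 was the only one called higher and Mtrex the only one called lower (median −0.06). Zfc3h1, the PAXT subunit, rose from 81.7 and 76.2 to 187 and 185 (1.23 ± 0.10, adjusted p = 1.5e-08, limma), or by 0.86, below the threshold, with CPM as deposited. Zcchc8 had 89.5 and 97.1 in Mtrex-WT and 67.8 and 78.7 in Mtrex-KO (−0.35), and Rbm7 61.8 and 60.9 against 55.8 and 66.6 (−0.01). Of 13 exosome genes tested of 14, Exosc7, from 46.9 and 50.7 to 19.5 and 21.2 (−1.25, adjusted p = 5.8e-09), and Exosc8 (−1.09) were lower and none higher (median −0.40). The lower share of exosome genes was 15.4%, against 10.6% of all genes. The Exosc8 value was −0.98 without Mtrex-KO replicate 1. Exosc10, the nuclear RNase, had 117 and 128 against 102 and 117 (−0.16). None of 19 genes of other RNA decay pathways and none of 13 SR protein genes passed both the fold change and the limma threshold.

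Among coding genes the largest increases were those of Thbs1, Fgfbp1, Atp12a, Ltb4r2, Perp and Serpine2. Perp, a p53 target and desmosome protein, went from 5.75 and 7.01 to 354 and 361 (5.76 ± 0.17, adjusted p = 3.3e-13, limma). Ltb4r2, a leukotriene receptor, had 0.896 and 0.383 in Mtrex-WT and 65.9 and 34.2 in Mtrex-KO (5.81), and Serpine2, a protease inhibitor, 1.53 and 2.14 against 123 and 90.5 (5.68). Atp12a, a proton-potassium pump of epithelia, rose from 0.395 and 0.520 to 42.5 and 54.7 (6.10). The difference from the Nrde2-KO effect was past the threshold for all 6, and smallest for Serpine2 (3.59 ± 0.28, adjusted p = 5.8e-08), which stood at 2.09 on the log2 scale in Nrde2-KO.

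Genes of p53, epithelial, YAP and immediate early programs rose. Of 31 p53 targets 20 were higher and none lower (median 1.27), against 19.3 and 10.6% of all genes. Mdm2, the ubiquitin ligase that restrains p53, went from 152 and 95.4 to 860 and 758 (2.74 ± 0.15, adjusted p = 1.3e-10), Plk2, a stress-induced kinase, from 54.1 and 32.5 to 547 and 564 (3.72), and Cd80, a costimulatory ligand, from 3.98 and 3.67 to 67.9 and 65.6 (4.04). Cdkn1a, the cell cycle inhibitor p21, was an exception, with 100 and 57.6 in Mtrex-WT and 137 and 91.0 in Mtrex-KO (0.55, adjusted p = 0.037), groups that overlapped.

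Of 28 simple epithelial and squamous genes tested of 34, 21 were higher and 2 (Cldn3 and Emp1) lower, with a median of 2.44. Over all genes 19.3% were higher and 10.6% lower. S100a6, a calcium-binding protein, rose from 5.17 and 8.87 to 328 and 276 (5.42 ± 0.29, adjusted p = 7.9e-11), Krt19, a keratin, from 0.712 and 2.00 to 52.4 and 73.0 (5.4), and Krt18 from 12.2 and 22.0 to 226 and 259 (3.87). YAP-responsive genes were higher in 12 of 20 cases and never lower (median 1.21), led by Thbs1, a matrix glycoprotein, and by Ccn2, a secreted matricellular protein, from 14.6 and 13 to 359 and 221 (4.33 ± 0.16, adjusted p = 1.2e-12). Immediate early genes were higher in 13 of 21 cases and never lower (median 1.41). Fos went from 0.843 and 0.657 to 11.8 and 17.6 (3.88 ± 0.24) and Jun from 4.59 and 4.49 to 76.7 and 46.1 (3.64 ± 0.29), both subunits of AP-1. The 2C genes, which mark a state like that of the 2-cell embryo, were higher in 30 of 32 cases (median 3.30). Their level differed between the Mtrex-KO replicates, by a median of 1.30 on the log2 scale. The median normalized CPM of these genes was 0.746 for the control, against 8.98 after the deletion. A member low in the control could pass the filter through Mtrex-KO alone, and 8 other listed genes stayed below it. The filter therefore bears on this share and median, which were not taken again with a minimum level for the control.

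The list of glycolysis and hypoxia genes had the lowest median of the 35 lists, −1.40. Of its 21 genes 14 were lower and none higher, against 10.6 and 19.3% of all genes. The lower genes included the hypoxia genes Vegfa, Ankrd37 and Bnip3, which are not enzymes of glycolysis. Ldha, lactate dehydrogenase, fell from 962 and 1123 to 82.6 and 116 (−3.41 ± 0.13, adjusted p = 1.5e-12, limma), Tpi1 from 421 and 537 to 69.9 and 80.5 (−2.66 ± 0.12, adjusted p = 1.2e-11) and Pfkp, a phosphofructokinase, from 342 and 386 to 59.5 and 78.6 (−2.41). The glucose transporter Slc2a1 (135 and 128 against 152 and 150) and hexokinase Hk2 (389 and 338 against 423 and 450), which act first in the pathway, were not called. Cholesterol synthesis genes were lower in 9 of 22 cases and never higher (median −0.94), with Insig1, a sterol sensor partner, from 68.7 and 62.8 to 12.3 and 19.2 (−2.08).

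Of 32 cell cycle genes 17 were lower and 4 higher (median −1.09). Ccnb2, a mitotic cyclin, fell from 162 and 191 to 36.9 and 50.7 (−2.02) and Ccne1, cyclin E, from 132 and 135 to 30.4 and 35.5 (−2.01). The 4 that rose were Cdkn1c (3.01) and Cdkn2b (1.58), inhibitors of cyclin-dependent kinases, Rb1 (2.73), which restrains entry into S phase, and the cyclin Ccnd2, at 1.61 and 1.23 in Mtrex-WT and 19.5 and 5.48 in Mtrex-KO (2.68, or 1.79 without Mtrex-KO replicate 1 and 3.57 without replicate 2). Of 78 cytosolic ribosomal protein genes 13 were lower (16.7%) and none higher (median −0.63), with Rps9 from 418 and 455 to 157 and 171 (−1.41). Of 45 ribosome biogenesis factors 4 were lower (8.89%) and 1, Utp20 of the small subunit processome, higher (1.03). Over all genes 10.6% were lower and 19.3% higher, so the lower share of biogenesis factors was below that of all genes. The Utp20 call was lost without Mtrex-KO replicate 2 (0.97) or Mtrex-WT replicate 2 (0.94).

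The ATF4 stress list split, with 13 of 28 genes lower and 5 higher (median −0.61), against 10.6 and 19.3% of all genes. The lower ones included enzymes of serine synthesis, Phgdh (34.3 and 23.2 to 3.21 and 3.22, −3.04) and Psat1 (383 and 335 to 44.0 and 54.1, −2.87), and the stress cofactor Nupr1 (11.7 and 16.3 to 0.656 and 0.797, −3.85). The higher ones were Atf3, from 3.85 and 6.05 to 44.8 and 36.7 (3.01), Ddit3, which encodes the factor CHOP (1.84), Ddit4 (1.93), Cebpb (1.83) and Sesn2 (1.10). Asns, asparagine synthetase, had 1052 and 1135 in Mtrex-WT and 575 and 978 in Mtrex-KO. Interferon and RNA sensing genes were mostly too low to test, 16 of 30. Of the other 14, Stat2 (−1.62), Bst2 (−1.50) and Oas1a, a sensor of double-stranded RNA that went from 8.09 and 8.6 to 0.557 and 0.830 (−3.20 ± 0.17), were lower. Ddx58 (RIG-I), one of 2 higher genes, went from 14.2 and 19.4 to 37.4 and 54.3 (1.43), and lost its call without Mtrex-KO replicate 2 (1.17) or Mtrex-WT replicate 1 (1.21).

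Pluripotency genes mostly stayed within the thresholds. Of 24 naive genes 4 were lower (16.7%) and 2 higher (8.33%), against 10.6 and 19.3% of all genes. Their median was 0.02, or −0.36 with CPM as deposited. Nanog fell from 992 and 1141 to 463 and 572 (−1.05 ± 0.14, adjusted p = 4.1e-06, limma) and Tcl1, a cofactor of AKT, from 88.9 and 99.8 to 8.29 and 13.3 (−3.13). Esrrb had 607 and 623 in Mtrex-WT and 621 and 728 in Mtrex-KO. Of the general factors, Pou5f1 (OCT4) had 865 and 910 against 511 and 681 (−0.59, adjusted p = 0.0011) and Sox2 had 289 and 259 against 201 and 272 (−0.23, adjusted p = 0.14). Lefty2, an inhibitor of Nodal, fell from 547 and 572 to 51.2 and 60.9 (−3.32 ± 0.20).

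Genes of other lineages moved unevenly. Trophectoderm genes were higher in 9 of 13 cases and never lower (median 1.68), led by Peg10, an imprinted gene of retroviral origin, at 75.4 and 86.4 in Mtrex-WT and 2291 and 860 in Mtrex-KO (4.12 ± 0.28). Elf5 and Hand1, which define the lineage, were below the filter. The 5 trophectoderm markers summed to 8.62 and 6.90 in Mtrex-WT and 48.7 and 23.3 in Mtrex-KO. Primitive endoderm genes were higher in 6 of 13 cases and lower in 1 (median 0.87), with Gata6 from 0.343 and 0.383 to 4.49 and 4.65 (2.98) and Gata4, its partner, at 7.93 and 7.80 against 6.13 and 5.74. The 6 primitive endoderm markers summed to 10.6 and 10.2 in Mtrex-WT and 15.2 and 13.9 in Mtrex-KO, and the 5 neural progenitor markers to 65.0 and 76.3 against 28.0 and 35.0. Tubb3, a neuronal tubulin, made up most of the latter sum (53.5 and 63.3 against 14.7 and 22.6), while Sox1 had 11.2 and 12.8 against 12.8 and 12.1. Of 5 neural list genes tested, Neurod1 and Nes were higher and Tubb3 lower (median 0.06, or −0.31 with CPM as deposited). Of 24 repressors of the 2C state 2 were higher and 3 lower (8.33 and 12.5%, against 19.3 and 10.6% of all genes), with Chaf1b, a subunit of the histone chaperone CAF-1, from 100 and 108 to 19.3 and 30.5 (−2.09) and Uhrf1, needed to maintain DNA methylation, from 608 and 651 to 126 and 186 (−2.04) among the lower ones.

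**Figure D5:**
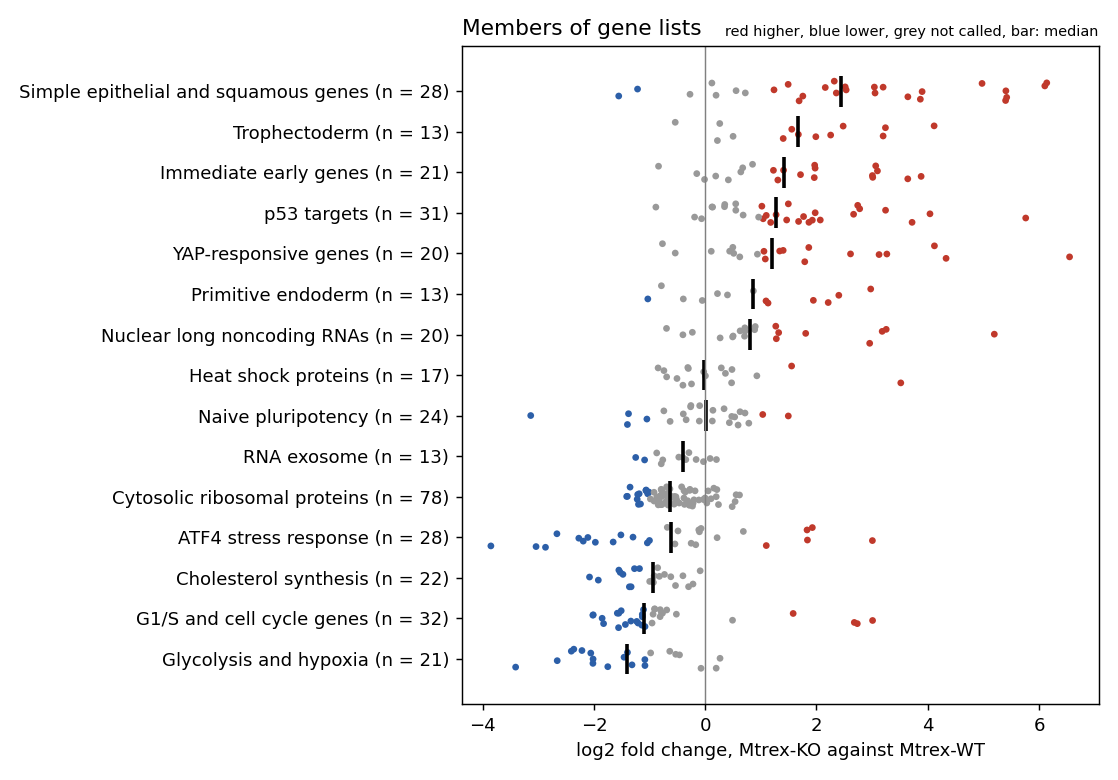
Log2 fold change of each tested member (points) of 15 gene lists with the median as a bar, red for higher, blue for lower and grey for not called. Epithelial genes have the highest median shown (2.44) and glycolysis and hypoxia genes the lowest (−1.40), against 0.04 over all 15334 genes.

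The coding genes with the largest decreases were Rassf4, Nkx1-2, Nupr1, Tmc7, Ndrg2 and Mgarp. Rassf4, a RAS association protein, fell from 16.7 and 19.6 to 0.426 and 0.996 (−4.32 ± 0.26, adjusted p = 2.3e-10, limma) and Ndrg2, a stress-responsive tumor suppressor, from 33.1 and 41.4 to 2.29 and 2.72 (−3.76 ± 0.14, adjusted p = 1.5e-12). Short coding genes were lower more often. Of the 4338 with the shortest exonic length 700 were lower (16.1%), and of the 4338 with the longest 328 (7.56%). Among all coding genes this share was 11.5%. The median Mtrex-WT level was 13.1 normalized CPM for the shortest and 35.6 for the longest. Coding genes of 1 to 10 CPM in Mtrex-WT were lower in 17.1% of cases and those over 10 CPM in 10.5%. Length was thus not told apart from level.

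The noncoding response was compared with that of the other experiments in the same fit. The comparisons share no libraries, and Nrde2-KO cells also received 4OHT. Genes were taken by their level in the Mtrex libraries, so a gene high only in Nrde2-KO or Ccdc174-dTAG could not enter. This limits the counts for those experiments. The difference between the Mtrex-KO and the Nrde2-KO effect was called higher for 14.4% and lower for 6.87% of all genes. Of the 1694 noncoding genes it was called higher for 761 and lower for 39, and of the 1058 with at least 0.5 CPM in Mtrex-WT for 299 and 39. Of all 14095 genes with that minimum the difference was higher for 1412 and lower for 1053. In Nrde2-KO itself 42 noncoding genes were called higher and 4 lower, where 2.8 and 2.06% of all genes were, and the median was 0.20. Among the 1058 with that minimum, 27 were higher and 4 lower in Nrde2-KO, against 319 and 315 of all 14095 genes with it. In Ccdc174-dTAG itself 3 noncoding genes were higher and none lower (limma), where 0.202 and 1.11% of all genes were. Against Ccdc174-dTAG, where the background was 18.5% higher and 10% lower, the difference was higher for 875 noncoding genes and lower for 52. With that minimum it was higher for 358 and lower for 52, against 1867 and 1539 of all 14095 genes. At the divergent long noncoding genes the Nrde2-KO median was 0.12, with 4 of 232 called higher, and the difference of effects was higher for 168 of them and lower for 2, or for 66 and 2 of the 117 with at least 0.5 CPM in Mtrex-WT.

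Some genes moved similarly in both knockouts. The cholesterol genes Msmo1 (−1.55 in Mtrex-KO, −1.80 in Nrde2-KO) and Fdps (−1.53 and −1.64) had differences of 0.25 ± 0.18 and 0.11 ± 0.20, and Lefty1 (−2.20 and −2.52) of 0.32 ± 0.44. None of these differences was past the threshold. Neat1, in contrast, was at 0.00 on the log2 scale in Nrde2-KO, with a difference of 3.18 (adjusted p = 1.4e-06), and Ldha at −0.67, with a difference of −2.74 (adjusted p = 1.2e-08). The rise of 2C genes was shared in direction. Of the 32 2C genes, 21 were called higher in Nrde2-KO and none lower (median 1.76), where 2.8 and 2.06% of all genes were. The difference of effects was called higher for 8 of the 32 and lower for 1.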

How the data were processed

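RNA was sequenced as stranded, rRNA-depleted 50-nt single-end libraries. The authors used STAR 2.7.3a for alignment to mm10, counted unique reads per GENCODE M23 gene with featureCounts and deposited CPM. Names, classes and places were taken from GENCODE M21 (GRCm38), which held 55154 of the 55335 genes. Whole reads could be recovered for 100% of values within 0.1 read. CPM were divided by median-of-ratios factors, 0.25 was added, and log2 values were fitted with limma 3.58.1 (R 4.3.3, trended eBayes) over 20 libraries in 10 groups of 2. Calls needed an adjusted p under 0.01 with a change beyond 1 on the log2 scale. The members, gene lists and rules were chosen with earlier results of these data known. Named were targets, the 6 largest called increases and decreases per class, the 3 largest noncoding CPM gains, up to 4 called genes per list with those defining it, and 3 divergent pairs. Alternatives were edgeR 4.0.16, DESeq2 1.42.0, other scalings, filters, added constants and left-out libraries. Scripts were tested on simulated data. Columns of the authors' comparisons were not used.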

Additional observations from a re-analysis of the deposited data

Results flagged for a closer look

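The share of reads outside annotated genes, which no comparison above uses, was 27.9% in Mtrex-KO replicate 1 and 17.3% in replicate 2, above the 13.6 and 10.7% of Mtrex-WT. Where these reads lie was not analysed here.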

How the results depend on the processing

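Of 156 alternative values for the counts of calls, 145 stayed within 1.5 times the reported count. CPM as deposited, which shifts the median of all genes by −0.36, gave 3019 lower genes (2745 coding, 97 noncoding) and 2224 higher, 42.4% of calls against 64.6%. It also gave 2507 lower for the difference from Nrde2-KO and 3040 from Ccdc174-dTAG, turned Rab30 to −0.25 and turned the list medians of naive (−0.36), neural (−0.31) and fibroblast genes (−0.15). The noncoding count of 977 was 1504 without a filter, 637 at a minimum of 1 CPM, 585 with the filter over 20 libraries and 406 with it on Mtrex-WT alone, the last chosen after seeing the data, where all genes gave 1866, as were the same minimum within classes and pairs and the values of Setd1b. Adding 1 before log2 gave 28 lower noncoding genes. Leaving out 1 library gave 2762 to 3201 higher and 1481 to 1849 lower genes, 1721 to 1980 and 1358 to 1672 for coding, 899 to 1087 and 51 to 69 for noncoding, 1968 to 2440 and 919 to 1216 for the difference from Nrde2-KO, and 2623 to 3076 and 1379 to 1744 from Ccdc174-dTAG. With the replicate block, 2991 were higher and 1631 lower. Fitting only the Mtrex libraries gave 2551 higher and 1408 lower genes, with 822 and 39 among noncoding genes. The deviations of same-numbered libraries had r = 0.41, and the 2 pairs share only a number. edgeR called 2933 and 1914 genes and DESeq2 2895 and 1757. The causes were not tested.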

Other observations

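Histone genes, Hoxa9 and mitochondrial genes were looked at after their values were seen. Of 58 histone genes tested 28 were lower and 3 higher (median log2 fold change −1.11), against 10.6 and 19.3% of all genes. Hist1h1b, a linker histone of dividing cells, fell from 392.1 and 478 to 77.7 and 98.9 normalized CPM (−2.30 ± 0.12, adjusted p = 4.1e-11, limma). Hist2h2be, whose message can be polyadenylated, rose from 1.48 and 2.44 to 14 and 16.9 (2.86).

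Hoxa9, a posterior patterning factor, had 20.4 and 27.7 in Mtrex-WT and 1.38 and 4.32 in Mtrex-KO (−3.14 ± 0.34, adjusted p = 3.3e-07, limma), and 0.30 as log2 fold change in Nrde2-KO. Of 7 mitochondrial coding genes 5 were higher and none lower, against 19.3 and 10.6% of all genes. mt-Cytb, a subunit of complex III, went from 221 and 199 to 681 and 851 (1.86). The complex I genes mt-Nd1, with 674 and 616 against 928 and 1190 (0.70), and mt-Nd6, with 7.59 and 6.30 against 10.3 and 5.94 (0.18), were not called.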
